A study of Homo sapiens with 3 samples.

Results

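At D21, 85 barcodes of the human cardiac organoids (CCOs) carried abundant cardiomyocyte (CM) transcripts together with the alpha-fetoprotein transcript AFP. They are called AFP-high CM barcodes here. They were chosen from 3602 barcodes of that day in which over 2000 but under 7500 genes were detected and mitochondrial genes took less than 20% of the unique molecular identifiers (UMIs). TNNT2, MYH6, MYL7 and TTN together had to reach 2% of the UMIs of the barcode, and AFP had to reach 0.2%. The 85 barcodes are 2.36% of the kept D21 barcodes and 4.2% of the 2024 that passed the limit on the 4 CM genes (exact binomial 95% interval 3.37 to 5.17%). The mitochondrial limit in the paper was lower, at 10%, and 40 of the 85 barcodes were at 10% or more. The table of the whole series holds 17327 barcodes.

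The organoids came from H7, an established line of human embryonic stem cells. Cells were differentiated with the GSK3 inhibitor CHIR99021 followed by the Wnt inhibitor IWP-2, put together as organoids in Matrigel with cardiosphere growing medium (CGM), and moved to RPMI with B27 in a spinner flask for the last week. Whole organoids were dissociated with TrypLE at D8, D14 and D21 and run on the Chromium 3' v2 droplet system, with 1 library per day. There are therefore no replicates: levels are given as counts per 1000000 UMIs (CPM) of a pool of barcodes with exact Poisson 95% intervals, shares with exact binomial 95% intervals, and both cover counting error only.

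AFP is the main serum protein of the fetus. It is made by the yolk sac and the fetal liver, where factors such as HNF1, HNF4A, FOXA and CEBPA switch it on together with albumin, apolipoproteins and clotting proteins. CMs arise from mesoderm and are marked by sarcomere proteins: TNNT2 is a troponin of the thin filament, MYH6 a myosin heavy chain, MYL7 an atrial and early myosin light chain and TTN the giant spring titin. In droplet data, a barcode stands for 1 cell only when 1 cell entered the droplet and little free RNA came with it, so UMIs of unlike cell types under 1 barcode have more than one possible source.

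For comparison, 3 other pools of D21 barcodes are set beside them. The AFP-low CM pool holds 1939 barcodes that passed the limit on the 4 CM genes with AFP under 0.2%. The hepatic pool holds 427 barcodes in which AFP, APOA1 and APOA2 made up 1% or more and the 4 CM genes under 1%. The remaining pool holds 1056 barcodes with both sums under 1%. The other kept barcodes, with the 4 CM genes at 1 to 2%, entered no pool: 10 of them had AFP, APOA1 and APOA2 at 1% or more and 85 had less. Another pool of 3271 D21 barcodes with at most 1000 genes and under 20% mitochondrial UMIs, here the low-gene pool, lies outside the limits that the rule sets. Its median was 842 UMIs per barcode.

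At D8 and D14 the rule found no barcode. It found 0 of 47 CM barcodes at D8, which allows a share of up to 6.38%, and 0 of 553 at D14, which allows up to 0.542%. In all CM barcodes of D8 together there were 0 AFP UMIs, which allows a level of up to 4.04 CPM, and at D14 there was 1. Day and library cannot be told apart. Barcode strings that 2 libraries share numbered 25 to 59 for each pair of days, and 0 of the 85 strings was also found at D8 or D14.

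AFP and the 4 CM genes chose the barcodes, so their values are given as a description. AFP made up 0.209% of UMIs in the lowest AFP-high CM barcode, 0.631% in the median and 2.45% in the highest, against a median of 0.0127% in AFP-low CM barcodes and 0.810% in hepatic barcodes. The 4 CM genes made up 2.16%, 3.14% and 7.16% in the lowest, median and highest AFP-high CM barcode, against medians of 4.69% in AFP-low CM and 0.130% in hepatic barcodes. Few barcodes lay near the AFP limit. Of the 2024 CM barcodes, 1870 had AFP under 0.05%, 54 had 0.05 to under 0.1%, 15 had 0.1 to under 0.2%, 7 had 0.2 to under 0.3%, 19 had 0.3 to under 0.5%, 52 had 0.5 to under 1% and 7 had more. The 5 barcodes just outside the limit had AFP at 0.170 to 0.199% and the 5 just inside at 0.209 to 0.268%. Both sets also held ALB, at 0.294 to 0.580% outside and 0.241 to 1.80% inside. Among the AFP-high CM barcodes, AFP fell as the 4 CM genes rose (Spearman's rho −0.68 over 85 barcodes, a description, since both are shares of the same total).

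**Figure D1:**
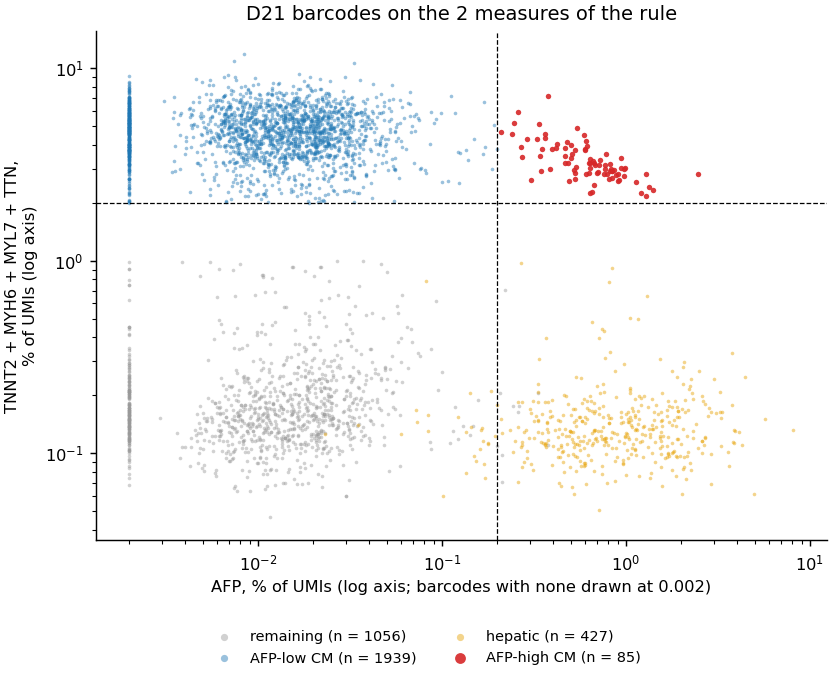
AFP (horizontal axis, percent of UMIs) against the sum of TNNT2, MYH6, MYL7 and TTN (vertical axis, percent of UMIs) in D21 barcodes, both on log axes, with 1 point per barcode and dashed lines at the limits of 0.2% and 2%. The 85 AFP-high CM barcodes slope downwards from the AFP-low CM barcodes towards the hepatic ones, and most of them lie between 0.3 and 1% AFP.

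AFP-high CM barcodes had fewer UMIs than either pool at the median. They had 4617 UMIs at the lowest, 8452 at the median and 38019 at the highest, against medians of 12896 in AFP-low CM, 21834 in hepatic and 13190.5 in remaining barcodes. The ratio of the medians of AFP-high to AFP-low CM barcodes was 0.655. The medians of AFP-low CM and hepatic barcodes add up to 34730 UMIs, and 1 of the 85 reached that sum. Of the 85, 58 were below the AFP-low CM median and 8 were above the hepatic median. The median mitochondrial share was 9.70%, against 12.4% in AFP-low CM and 9.02% in hepatic barcodes. UMIs of ribosomal protein genes made up 9.80% at the median, less than the 15.4% in AFP-low CM, 18.6% in hepatic and 26.5% in remaining barcodes.

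Hepatic secreted proteins that had no part in the rule were high in all 85 barcodes. The 24 genes of this list made up 0.595%, 2.93% and 5.81% of UMIs in the lowest, median and highest AFP-high CM barcode. All 85 lay above 0.2502%, the 95th percentile of AFP-low CM barcodes, while 62 of them lay below 3.34%, the 5th percentile of hepatic barcodes. They lay between the bulk of both pools, and 24 AFP-low CM barcodes were also above the lowest of them. Summed over each pool, the list stood at 29386 CPM (29047 to 29728) in AFP-high CM, 1468 CPM (1454 to 1483) in AFP-low CM and 117665 CPM (117457 to 117872) in hepatic barcodes, which makes AFP-high CM barcodes 20.01-fold higher than AFP-low CM, or 4.32 on the log2 scale (4.30 to 4.34). Of the 24 genes, 20 reached 50 CPM in AFP-high or AFP-low CM barcodes, and all 20 were 2-fold or more higher in AFP-high CM, with 10 CPM added to both levels. The 4 others, AFM, APOA4, APOH and SERPINC1, were below this level. A gene far below 50 CPM in AFP-low CM barcodes, such as APOB, TF or GC, was tested only through its AFP-high CM level. That fixes its call as higher, so the count of 20 is a description. Over all genes tested in the same way, 224 of 3164 were 2-fold or more higher, which is 7.08%, and 30 were 2-fold or more lower, which is 0.948%. The median log2 ratio with 10 CPM added was 3.77 over the 20 hepatic genes and 0.15 over all 3164 genes.

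ALB had the highest level of the hepatic list in AFP-high CM barcodes. ALB encodes albumin, the main plasma protein of the liver, and stood at 12959 CPM (12734 to 13187) in AFP-high CM, 385.9 CPM (378.5 to 393.4) in AFP-low CM and 31274 CPM in hepatic barcodes, and was 33.6-fold higher in AFP-high than in AFP-low CM. SERPINA1, the protease inhibitor alpha-1-antitrypsin, stood at 3743 CPM in AFP-high CM, 221.4 CPM in AFP-low CM and 21094 CPM in hepatic barcodes. The fibrinogen chains FGA, FGB and FGG stood at 601.3, 1090 and 680.4 CPM in AFP-high CM barcodes, and were 28.7-, 23.2- and 27.6-fold higher than in AFP-low CM. APOB, the backbone of secreted lipoproteins, was 31.6-fold higher at 440.2 CPM, the iron carrier TF 31.1-fold at 459.7 CPM and the vitamin D carrier GC 36.1-fold at 284.3 CPM. TTR, the thyroxine carrier, was 12.3-fold higher, and APOC3, a lipoprotein component with the smallest fold of the 20 tested genes, 8.78-fold. No gene of the list was higher in AFP-high CM than in hepatic barcodes.

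Genes that a liver cell uses inside the cell or on its surface showed the same order. Of the 16 genes for hepatic uptake and metabolism, 5 could be tested and all 5 were 2-fold or more higher than in AFP-low CM: the fatty acid binder FABP1 at 535.7 against 30.01 CPM, the asialoglycoprotein receptor ASGR1 at 180.6 against 10.3 CPM, the glucose transporter SLC2A2 at 56.4 against 1.19 CPM, and CYP3A7 and SEPP1. The other 11 were below 50 CPM in both pools. ASGR1, SLC2A2 and CYP3A7, the last at 5.17 CPM in AFP-low CM, were tested only through their AFP-high CM levels. Their calls as higher were fixed by that limit. Transcription factors of endoderm were scarce, and only CEBPA and PROX1 of 17 could be tested. CEBPA stood at 53.4 CPM (39.9 to 70.0) in AFP-high CM, 4.72 CPM (3.94 to 5.62) in AFP-low CM and 248.1 CPM in hepatic barcodes. HNF4A, a master regulator of hepatocytes, stood at 16.4 CPM (9.39 to 26.7), 0.967 CPM (0.632 to 1.42) and 65.3 CPM in the same order, and HHEX, a factor of the early liver bud, at 45.2, 1.599 and 99.7 CPM. PROX1, which CMs also express, stood at 72.9 against 57.6 CPM in AFP-low CM. Of the epithelial list, 1 of 5 tested genes was 2-fold or more higher, EPCAM at 99.5 against 5.32 CPM, and hepatic barcodes had 289.3 CPM. Of the oncofetal genes often seen with AFP, 3 of 7 tested were 2-fold or more higher: the surface proteoglycan GPC3 at 1288 against 49.5 CPM, the growth factor IGF2 at 2722 against 1016 CPM and DLK1 at 589.0 against 147.2 CPM. GPC3 had 3442 CPM in hepatic and 303.7 CPM in remaining barcodes, and IGF2 8530 and 1893 CPM. DLK1 ran the other way, with 844.6 CPM in hepatic and 3493 CPM in remaining barcodes. IGF2BP1 and IGF2BP3, RNA-binding proteins that fetal tissues share, stood at 55.4 and 35.9 CPM against 69.6 and 44.9 CPM, and the intervals of their log2 ratios, −0.75 to 0.06 and −0.85 to 0.16, span 0. The related IGF2BP2 stood at 186.8 against 137.1 CPM, a log2 ratio of 0.45 (0.22 to 0.66). Of the 13 listed regulators of AFP, 3 could be tested and CEBPA alone was past 2-fold. The calls of CEBPA and EPCAM were fixed in the same way as that of ASGR1.

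CM genes outside the rule were present at a reduced sum. The 26 CM genes made up 1.72%, 5.25% and 7.24% of UMIs in the lowest, median and highest AFP-high CM barcode, against medians of 6.99% in AFP-low CM and 0.277% in hepatic barcodes. Their summed level was 49164 CPM (48725 to 49606) against 71740 CPM (71639 to 71841) in AFP-low CM, a log2 ratio of −0.55 (−0.56 to −0.53). The median log2 ratio with 10 CPM added was −0.39 over the 24 genes tested. Of these, 0 were 2-fold or more higher, 23 were within 2-fold and 1, the myosin light chain MYL3, was 2-fold or more lower, at 4392 against 9091 CPM. The difference was uneven. The calcium sensor TNNC1 had 3598 against 7129 CPM and the slow skeletal troponin TNNI1 3862 against 7340 CPM, while the calcium pump regulator PLN had 3163 against 2807 CPM, the Z-disc protein NEBL 1005 against 827.6 CPM and the calcium release protein TRDN 481.3 against 300.6 CPM. The intervals of these 3 log2 ratios lay above 0, at 0.12 to 0.22 for PLN, 0.19 to 0.37 for NEBL and 0.54 to 0.81 for TRDN. The genes of the rule chose the barcodes, and their levels are a description: MYL7 had 11812 against 22912 CPM, MYH6 7297 against 10083 CPM, TNNT2 6803 against 7800 CPM and TTN 7942 against 7241 CPM.

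Counts of chamber genes past 2-fold stand beside 7.08% higher and 0.948% lower over all 3164 genes tested. With so few genes tested per list, they are a description. Of 7 ventricular genes tested, 0 were 2-fold or more higher and 1, again MYL3, was lower, and the myosin light chain MYL2 had 234.0 against 418.8 CPM in AFP-low CM. After thinning every barcode to 4000 UMIs, MYL2 was seen in 61.2% of AFP-high and 38.9% of AFP-low CM barcodes, so its share of barcodes and its level ran in opposite directions, and no order is read from that share. HEY2 had 59.5 against 74.7 CPM and IRX4 63.6 against 79.4 CPM. Of the atrial list, NPPA and PAM could be tested and neither was past 2-fold, at 231.9 against 283.2 CPM and 266.8 against 281.2 CPM. Of the nodal and pacemaker list only the calcium channel CACNA1G could be tested, at 91.3 against 88.7 CPM. Chamber and pacemaker genes too low to be tested differed both ways. HEY1 had 32.8 against 9.15 CPM (log2 ratio 1.26 to 2.38) and NR2F2 27.7 against 10.8 CPM (0.73 to 1.93). IRX3 had 20.5 against 44.8 CPM (−1.84 to −0.49) and HCN4 29.8 against 48.8 CPM (−1.30 to −0.19). Remaining barcodes had 44.2 CPM of HEY1 and 66.8 CPM of NR2F2. The cardiac factor NKX2-5 had 212.4 against 329.8 CPM and GATA4 102.6 against 94.4 CPM, and none of the 7 cardiac factors tested was past 2-fold.

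**Figure D2:**
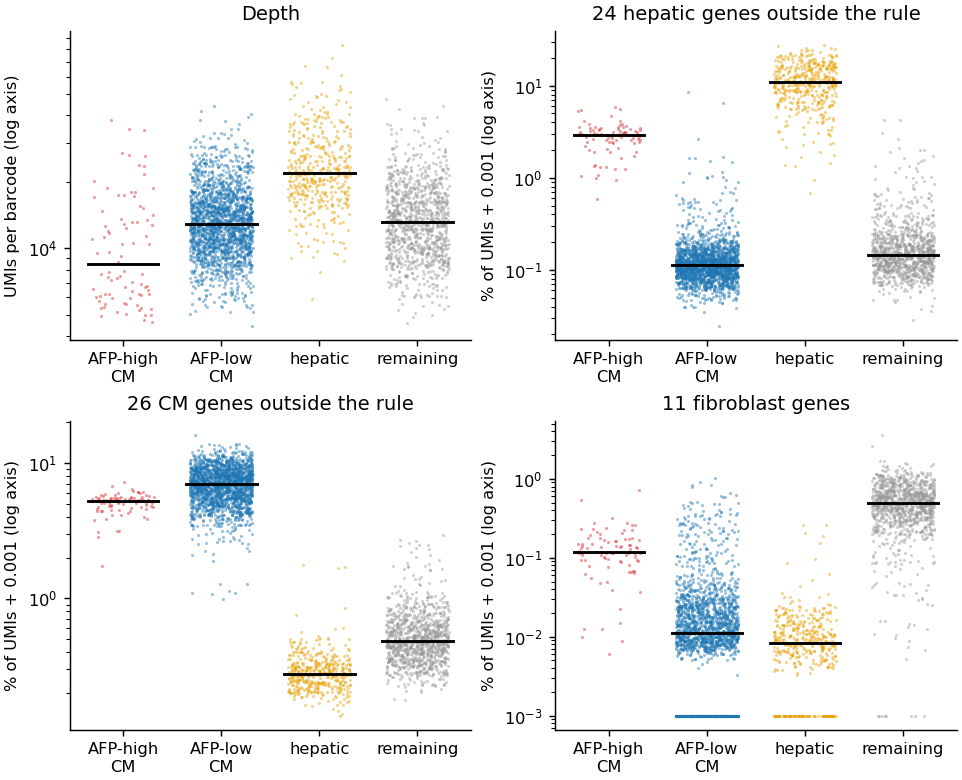
UMIs per barcode and the percent of UMIs from 3 gene lists in the 4 pools of D21 barcodes, on log axes, with 1 point per barcode and a black line at the median (0.001% was added to the list shares so that barcodes at 0 can be drawn). AFP-high CM barcodes have the lowest median depth, lie between AFP-low CM and hepatic barcodes in the hepatic list, and hold fibroblast UMIs above the medians of both.

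The level of a gene in AFP-high CM barcodes can be placed between the AFP-low CM level, set at 0%, and the hepatic level, set at 100%. This place is called the hepatic share here, and is the level in AFP-high CM less that in AFP-low CM, divided by the level in hepatic less that in AFP-low CM. It is an arithmetic description. AFP, which chose the barcodes, read 59.6%, and its partners in the definition of the hepatic pool, APOA1 and APOA2, read 22.1% and 14.0%. Outside the rule, ALB read 40.7%, APOB 30.9%, FGB 24.1%, SERPINA1 16.9% and APOC3 8.76%, while the summed hepatic list read 24.03%. Over the 121 genes that stood at 100 CPM or more and 10-fold or more above AFP-low CM in hepatic barcodes, the median share was 23.2%, the middle 50% ran from 18.7 to 30.4%, and the range was 3.37% for S100A6 to 93.9% for SERPINE2. The share read from AFP moved with the AFP limit of the rule, from 51.8% at 0.1% to 73.4% at 0.5%. The 121 genes are therefore not ranked against it. Over the 150 genes that set AFP-low CM above hepatic barcodes by the same limits, the median hepatic share was 21.7%, with a middle 50% from −3.19 to 36.9%, and in 40 of them the level in AFP-high CM was at or above that in AFP-low CM. The summed CM list read 32.8% and the summed ventricular list 49.1%.

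**Figure D3:**
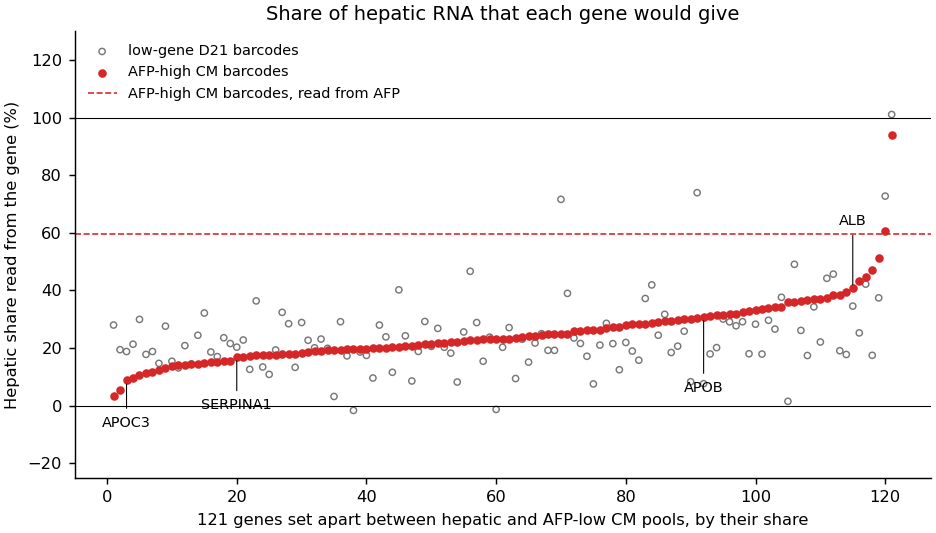
Share of hepatic RNA (vertical axis, percent) read from each of 121 genes in AFP-high CM barcodes (red) and in low-gene D21 barcodes (open grey), with the genes ordered by their share in AFP-high CM barcodes and a dashed line at the share read from AFP in those barcodes, 59.6%. AFP chose the barcodes, so the dashed line is a description. The red points run from 3.37 to 93.9% with a median of 23.2%, and the grey points scatter around a median of 21.6%.

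Summed as a pool, low-gene barcodes held hepatic transcripts at levels near those of AFP-high CM barcodes and CM transcripts at lower levels. The median low-gene barcode held less. The hepatic list made up 1.36% of its UMIs against 2.93% in AFP-high CM, ALB 0.448% against 1.40% and AFP 0.234% against 0.631%. The 95th percentile of the list in low-gene barcodes was 10.7%. The values that follow are those of summed pools. It had ALB at 11067 CPM and AFP at 5012 CPM, against 12959 and 6604 CPM in AFP-high CM barcodes, and the hepatic list at 28986 against 29386 CPM. The same 121 genes read a median hepatic share of 21.6% in it, with a middle 50% from 17.8 to 28.6%. Gene by gene, these shares were only loosely related to those of AFP-high CM barcodes (Spearman's rho 0.27 across 121 genes, which are not independent). The CM list stood at 39491 against 49164 CPM, MYH6 at 2577 against 7297 CPM and the calcium pump ATP2A2 at 216.7 against 645.5 CPM. The 150 CM genes read a median hepatic share of 47.6% in the low-gene pool, against 21.7% in AFP-high CM barcodes. In the low-gene pool 1567 barcodes passed the limit on the 4 CM genes, and 847 of them had AFP at 0.2% or more, although a barcode of that depth can pass on very few UMIs.

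Distances between whole profiles put AFP-high CM barcodes about as near to the low-gene pool as to a mix. Over 3826 genes without the rule and mitochondrial genes, 19.7% of UMIs would have to change gene to turn the AFP-high into the AFP-low CM profile, 38.5% for the hepatic and 33.3% for the remaining profile, and 16.3% for the low-gene profile. The nearest mix of AFP-low CM and hepatic profiles held 21% hepatic and was 16.5% away. Adding the remaining pool gave 75% AFP-low CM, 17.5% hepatic and 7.5% remaining, at 16.2%. The low-gene profile was nearer to its own best mix of these pools, at 9.43%, with 50% AFP-low CM, 20% hepatic and 30% remaining. Whether free RNA, joint capture of cells or cells with both programmes gave these barcodes was not tested.

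The ratio of ALB to AFP varied less among AFP-high CM barcodes than among hepatic barcodes. The log2 ratio of ALB to AFP UMIs, with 1 added to each, had a median of 1.00 and a middle 50% from 0.81 to 1.32 in AFP-high CM barcodes, a width of 0.51. In hepatic barcodes the median was 1.23, and the middle 50% ran from −1.68 to 2.84, a width of 4.52, so that ALB outnumbered AFP in some and was nearly absent from others. ALB was 1 to 4 times AFP in 73 of 85 AFP-high CM barcodes (85.9%) and in 108 of 427 hepatic barcodes (25.3%). The range is not particular to AFP-high CM barcodes, since it also held 77.2% of AFP-low CM, 74.2% of remaining and 68.8% of low-gene barcodes, although each of these 3 pools had a median of 4 ALB and 2 AFP UMIs per barcode. AFP had chosen the AFP-high CM barcodes. CM barcodes were therefore also chosen by the other 23 hepatic genes at 0.5% of UMIs, a choice made after seeing the data, which gave 105 barcodes. Of these, 83 were the same barcodes, and among the 22 that were not, which had AFP under 0.2% by definition, ALB was 1 to 4 times AFP in 11.

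**Figure D4:**
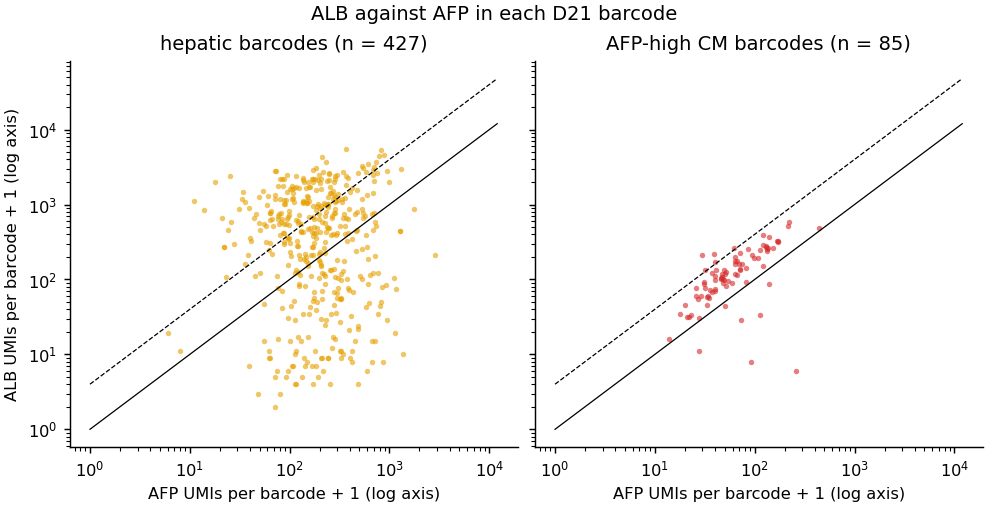
ALB UMIs (vertical axis) against AFP UMIs (horizontal axis) in each hepatic (left) and AFP-high CM (right) barcode, 1 added to both, on log axes, with a solid line where both are equal and a dashed line where ALB is 4 times AFP. Hepatic barcodes scatter on both sides of the lines, and 73 of the 85 AFP-high CM barcodes lie between them.

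Of the 12 AFP-high CM barcodes outside that range, 7 had less ALB than AFP and 5 had over 4 times as much, with 1 UMI added to each. Some AFP-high CM barcodes held little ALB. Of the 85, 6 had ALB under 0.25% of UMIs, at 0.0249 to 0.241%, with AFP at 0.209 to 1.28%, and 1 of these 6 lay within the range of 1 to 4 times AFP. Their median was 18687.5 UMIs and 14.6% ribosomal protein UMIs, against 7892 UMIs and 9.66% in the other 79. The fibroblast genes made up 0.0373% at the median in these 6 and 0.129% in the other 79. The groups overlapped in every one of these measures but ALB, which defined them, and the limit of 0.25% was chosen after seeing the values.

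Transcripts of stromal cells were higher as well. Fibroblasts make the collagens and proteoglycans of connective tissue, and their 11 listed genes stood at 1348 CPM (1277 to 1423) in AFP-high CM barcodes, 378.1 CPM in AFP-low CM, 120.9 CPM in hepatic and 5284 CPM in remaining barcodes. The low-gene pool had 1100 CPM (1064 to 1137), so a level above AFP-low CM was not particular to AFP-high CM barcodes. All 6 genes of the list that could be tested were 2-fold or more higher than in AFP-low CM. Of them, 5 were also 2-fold or more above the hepatic level. Over all genes tested in the same ways, these shares were 7.08% and 1.35%. FBLN1, at 59.5 against 16.8 CPM in AFP-low CM, was tested only through its AFP-high CM level, which fixed its call as higher. The call of LUM was nearly fixed in the same way, so both counts are a description. Their median log2 ratio to AFP-low CM with 10 CPM added was 1.66. COL1A1 had 329.4 CPM (294.4 to 367.5) against 96.0 CPM in AFP-low CM and 26.5 CPM in hepatic barcodes, COL3A1 492.6 against 149.9 and 35.7 CPM, and LUM, a collagen-binding proteoglycan, 145.7 against 20.1 and 5.34 CPM. The signal was spread over the barcodes. All 85 held at least 1 fibroblast UMI and 82 lay above the AFP-low CM median. After thinning to 4000 UMIs, 92.9% of AFP-high CM barcodes (85.3 to 97.4%) held one, against 41.9% of AFP-low CM (39.7 to 44.1%) and 30.9% of hepatic barcodes (26.6 to 35.5%). No barcode of these pools had under 4000 UMIs. Unthinned, the shares were 100%, 74.8% and 79.4%. The median share of the list was 0.116% in AFP-high CM and 0.490% in remaining barcodes.

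Markers of other cell types were scarcer. The 9 endothelial genes stood at 127.2 CPM (105.8 to 151.7) in AFP-high CM, 40.1 CPM in AFP-low CM, 81.5 CPM in hepatic and 520.4 CPM in remaining barcodes. EGFL7, the 1 gene that could be tested, had 68.8 against 27.3 CPM in AFP-low CM, and 77.9 CPM in hepatic barcodes. It gave 67 of the 124 UMIs of the list in AFP-high CM and 817 of the 855 in hepatic barcodes. EMCN, a surface mucin of vessels, had 17.5 CPM (10.2 to 27.9) against 2.27 CPM in AFP-low CM and 0.572 CPM in hepatic barcodes. The low-gene pool had the endothelial list at 137.9 CPM (125.3 to 151.4) and EMCN at 26.3 CPM. The epicardial list came to 19.5 CPM and the embryonic blood list to 4.11 CPM, with 0 UMIs of HBA1, HBA2, HBE1, HBG1 and HBZ. The smooth muscle list stood at 1064 against 1275 CPM in AFP-low CM, with 0 of 3 tested genes past 2-fold.

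Transcripts of dividing cells showed a similar spread. The 22 G2/M genes summed to 525.4 CPM (480.9 to 573.0) in AFP-high CM and 459.3 CPM (451.3 to 467.5) in AFP-low CM, a log2 ratio of 0.19 (0.06 to 0.32), which turned negative with a mitochondrial limit of 10% (−0.12) and with a limit of 1% on the CM genes (−0.018). At the level of barcodes the pools differed in another way. With each barcode thinned to 4000 UMIs, at least 1 UMI of these genes was found in 88.2% of AFP-high (79.4 to 94.2%) and 31.0% of AFP-low CM barcodes (28.99 to 33.2%), and unthinned in 94.1% and 59.8%. Unthinned, 1 of 85 (1.18%) reached 0.2% of UMIs against 87 of 1939 (4.49%). MKI67, a marker of cycling cells, was seen after thinning in 16.5% of AFP-high (9.31 to 26.1%) and 5.31% of AFP-low CM barcodes (4.36 to 6.41%), at levels of 31.8 and 29.4 CPM. The log2 ratio of these levels was 0.11 (−0.45 to 0.63). As for MYL2, no order is read from the shares of barcodes with a UMI. The low-gene pool had the list at 552.8 CPM. The G1/S and S phase list stood at 529.5 against 535.6 CPM in AFP-low CM, with 0 of 4 tested genes past 2-fold.

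Counts of metabolic, stress and retinoid genes past 2-fold stand beside 7.08% higher and 0.948% lower over all 3164 genes tested. The lists hold few tested genes, so their counts are a description. Of the glycolysis list 0 of 13 tested genes were past 2-fold, and of the fatty acid oxidation list 1 of 6 was, the mitochondrial isomerase ECI1 at 63.6 against 164.1 CPM. Of 10 tested stress and dissociation genes, 2 were 2-fold or more higher than in AFP-low CM, the immediate early gene JUNB at 201.1 against 82.4 CPM and GDF15 at 60.5 against 5.06 CPM, and hepatic barcodes had 329.5 and 215.8 CPM of them. Of 4 tested retinoid genes, 2 were 2-fold or more higher, the retinal dehydrogenase ALDH1A1 at 138.5 against 5.88 CPM and the retinol carrier RBP4 at 480.3 against 33.8 CPM, and both were higher still in hepatic barcodes. GDF15 and ALDH1A1 were tested only through their AFP-high CM levels, which fixed their calls as higher.

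Of the 224 genes that were 2-fold or more higher in AFP-high than in AFP-low CM, 140 were higher still in hepatic barcodes and 42 more were higher in remaining barcodes. The other 42 were higher in neither. The 10 with the largest fold were ALB, GPC3, FGG, FGA, FGB, TF, APOB, AMBP, GC and SERPINA1, all hepatic products, and AMBP, the precursor of a protease inhibitor, had 1606 against 86.5 CPM. Among 3469 genes tested against both pools, 47 (1.35%) were 2-fold or more above the larger level of AFP-low CM and hepatic barcodes. A gene far below 50 CPM in both pools was tested only through its AFP-high CM level, which fixed its call as above both. PLAT, at 15.9 CPM in AFP-low CM and 7.06 CPM in hepatic barcodes, is such a gene. The count of 47 and the counts within it are therefore a description. For 22 of the 47 the highest level was in remaining barcodes, as for LUM and for PLAT, TFPI2 and EMILIN1, which had 96.5, 85.2 and 116.0 CPM in AFP-high CM and 327.8, 487.1 and 370.5 CPM in remaining barcodes. For 23 the AFP-high CM barcodes themselves had the highest level of the 5 pools. ANKRD45, the furthest above both, had 339.7 CPM (304.1 to 378.3) against 39.8 CPM in AFP-low CM, 11.9 CPM in hepatic, 7.68 CPM in remaining and 226.1 CPM in low-gene barcodes. The noncoding genes RP11-499P20.2, STARD4-AS1 and RP1-187B23.1 had 71.8, 90.3 and 64.7 CPM against 11.2, 16.3 and 10.7 CPM in AFP-low CM, and 66.0, 147.3 and 37.8 CPM in low-gene barcodes. In 46 of the 47 the low-gene pool was also above both pools, and in 25 by 2-fold or more.

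Of the 30 genes that were 2-fold or more lower, the one with the largest fold was HIST1H4C, a histone gene of S phase, at 25.7 CPM (16.6 to 37.9) against 258.5 CPM (252.4 to 264.6) in AFP-low CM, 125.5 CPM in hepatic and 545.9 CPM in remaining barcodes. The low-gene pool had 42.8 CPM. Others among the 10 with the largest fold were VEGFB, UBE2S, ZSCAN16-AS1, IFI27L2, RASGRP2, ECI1, COX14 and CITED4, of which COX14, an assembly factor of cytochrome oxidase, had 217.6 against 517.6 CPM. All 30 were also lower in the low-gene pool than in AFP-low CM, and 10 were lower in AFP-high CM than in hepatic and in remaining barcodes.

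Levels in AFP-high CM barcodes differed by transcript length, with the shortest genes lowest. Of 1399 genes at 50 CPM or more in AFP-high CM, AFP-low CM and hepatic barcodes, 1314 had a protein-coding transcript in GENCODE v29, and the length of the longest was used. The median log2 ratio of AFP-high to AFP-low CM was −0.34 for the 329 shortest (359 to 1263 bases), 0.10 and 0.29 for the next 2 groups of 328 genes, and 0.30 for the 329 longest (3790 to 24828 bases). Hepatic barcodes had −0.21 in the shortest and −0.38 in the longest group, and the low-gene pool 0.10 and −0.04. In the 195 AFP-low CM barcodes at or under the median depth of AFP-high CM barcodes, the medians were −0.09 and 0.07. Among the 119 of 121 hepatic genes with a length, the share of hepatic RNA had medians of 19.4%, 25.96% and 26.1% from the shortest to the longest set of genes in AFP-high CM barcodes, and 21.0%, 23.8% and 18.3% in the low-gene pool. Among the 140 of 150 CM genes with a length, the median log2 ratio of AFP-high to AFP-low CM was −0.45, −0.24 and −0.31 in the same order, not a steady rise. The part of length in the levels above was not tested.

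Depth moved with the rule, so the same levels were read against shallow AFP-low CM barcodes, here called those of like depth. These are the 195 with at most 8452 UMIs, the AFP-high CM median, and their own median was 7451 UMIs. AFP-high CM barcodes reach 38019 UMIs, so depth was capped and not matched. The 195 had 218.7 CPM of AFP, 448.1 CPM of ALB and 1664 CPM of the hepatic list. AFP-high CM barcodes were 4.14 higher on the log2 scale in that list. The CM list was then −0.35 on the log2 scale and the G2/M list 0.89.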

How the data were processed

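For all 3 days, the authors deposited 1 table of UMI counts of genes by barcodes, not normalized, and a check found whole numbers throughout. The lowest barcode in it held 500 UMIs, and barcodes under that were not analysed here. The submitters' processing notes name Cell Ranger, Seurat 3.2.1 and the build hg19, with no role given. The end of each barcode name gave its day. No count model, test or p-value was computed, since each day is 1 library. The kept barcodes held 4449 to 83145 UMIs at D21, with totals of 46858667, 52721996 and 54864657 UMIs at D8, D14 and D21. Pools of barcodes were summed and expressed as CPM with exact Poisson intervals, and log2 ratios have exact intervals from how the counts of a gene divide between 2 pools. A gene was tested when it reached 50 CPM in a pool compared, and called past 2-fold with 10 CPM added, without the 7 genes of the rule and mitochondrial genes. A gene far below 50 CPM in AFP-low CM barcodes could be tested only through AFP-high CM, which fixes its call as higher. In the same way, the call as above both is fixed for a gene far below 50 CPM in AFP-low CM and hepatic barcodes. Where a count of 0 is given a limit, it is that of 3 counts. The genes named are those of the rule, those of 22 lists, the 10 with the largest fold each way against AFP-low CM, the 10 furthest above both pools, with at least 30 UMIs, and genes that set both pools apart. A gene that this rule names is not reported here. The members and lists were chosen with earlier results of these data known. Doublets were kept and no caller was used. H19 and UHRF1, listed, have no row in the table. Shares of barcodes with a UMI of a gene or list used counts thinned to 4000 UMIs, except where given as unthinned, and shares past a percentage of UMIs were not thinned. The scripts were tested on simulated mixes of known share. Python 3.11.15, numpy 2.4.6, scipy 1.17.1, pandas 2.3.3 and matplotlib 3.10.9 were used, with transcript lengths from GENCODE v29 matched by symbol. Alternatives were other limits on mitochondrial share, genes, AFP, CM genes and the hepatic pool, means over barcodes, other totals, other CPM added, levels and folds, no thinning, and, added after seeing the data, AFP-low CM barcodes of like depth.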

Additional observations from a re-analysis of the deposited data

Results flagged for a closer look

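Barcodes outside the limits of the rule held more of the same combination. Among D21 barcodes with over 1000 and up to 2000 genes and under 20% mitochondrial UMIs, which entered no pool, 158 of the 316 that passed the limit on the 4 CM genes also passed the AFP limit, which is 50% (exact binomial 95% interval 44.4 to 55.7%), at a median of 3042 UMIs over the 546 barcodes of that range. Among those with at most 1000 genes it was 847 of 1567, or 54.1% (51.6 to 56.5%). In the kept barcodes it was 4.2% (3.37 to 5.17%). Above the mitochondrial limit, 7 of 306 passed, or 2.29% (0.925 to 4.66%). At a median of 842 UMIs the AFP limit comes to less than 2 UMIs, so that share is also set by depth.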

How the results depend on the processing

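No paired analysis was possible because each day is 1 library. Of 116 values recomputed under other settings, 54 stayed within the counting interval of the reported value, or within 1.5 times a reported count of genes, 60 moved further and 2 changed sign. The cause was not tested. The direction of the hepatic list (3.91 to 4.62 on the log2 scale) and of the CM list (−0.64 to −0.35) held in every setting tried. In what follows, the values run in the order given here. With the mitochondrial limit of 10%, 45 barcodes were AFP-high CM, 7.59% of CM barcodes, the hepatic list was 4.21 and the CM list −0.57 on the log2 scale, the hepatic share was 53.3% from AFP and 22.5% from the list, 62 genes were lower than in AFP-low CM, 78 were above both pools, and the G2/M list turned to −0.12. With over 1000 genes, there were 243 barcodes (10.4%), with a depth ratio of 0.256, a hepatic list of 4.28, a CM list of −0.50 and an AFP share of 61.2%. With AFP at 0.1%, 100 barcodes gave 4.47, −0.53, 51.8%, 23.6% and 17 lower genes. With AFP at 0.5%, 59 barcodes (2.92%) gave a hepatic list of 4.28, shares of 73.4% and 27.2%, and 52 lower genes. With CM genes at 1%, 95 barcodes gave 4.62, −0.64, a list share of 31.5%, 23 genes above both and a G2/M list of −0.018. With CM genes at 4%, 15 barcodes (1.10%) gave 3.91, −0.60, 32.6% and 15.3%, a G2/M list of 1.02, and 486 higher genes, 108 lower and 313 above both. The share read from the hepatic list was 23.4% with the hepatic pool at 2%, 23.5% as a mean over barcodes, 24.4% without mitochondrial genes in the total and 23.6% without the rule genes. As a mean over barcodes, the CM list was −0.48, the G2/M list 0.62 and 75 genes were above both. Without mitochondrial genes in the total, the hepatic list was 4.30 and the CM list −0.57. Higher, lower and above-both genes numbered 300, 48 and 80 with 1 CPM added, 108, 7 and 13 with 50 CPM added, 447, 38 and 81 with a level of 10 CPM or with none, and 104, 1 and 13 at 3-fold. Against AFP-low CM of like depth, the hepatic list was 4.14, the CM list −0.35 and the G2/M list 0.89. Unthinned, 30.6% of AFP-high CM barcodes had an MKI67 UMI. Pools of 85 barcodes limit low genes: HNF4A rests on 16 UMIs.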
